A study of Rattus norvegicus with 24 samples.

Results

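The data cover 10 genes of plasma membrane repair in the tibialis anterior, a muscle of the lower leg that flexes the ankle, of male Wistar rats. They are the annexins Anxa1, Anxa2, Anxa4, Anxa5 and Anxa6, the S100 partners S100a10 and S100a11, the ferlins Dysf and Myof, and Trim72. Members were taken by gene symbol and the values of a gene's transcripts were added up, which gave 10 of 15273 gene symbols and 13 of 20027 transcripts. In each of 12 adult animals an implanted pulse generator stimulated the left muscle in daily sessions of resistance exercise for 2, 10, 20 or 30 days, with 3 animals per time point, and muscles were taken 1 h after the last session. The right muscle of the same animal was not stimulated and served as contralateral control, so that 24 muscles were compared. Controls and trained muscles thus came from the same implanted animals, and no muscle from an animal without an implant was analysed here. No genetic alteration is named. At implantation the animals received isoflurane as anaesthetic, the antibiotic Enrofloxacin and the analgesic Buprenorphine, the last injected into the right thigh. The 4 comparisons with training share the same 12 controls and are not independent of each other.

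Torn muscle membrane is resealed within moments of calcium entry. Annexins are calcium-dependent phospholipid-binding proteins that gather at the wound, and several act together with a small S100 protein. Dysferlin, a calcium-binding protein of the fibre membrane, takes part in bringing vesicles to the wound, and its loss causes a muscular dystrophy. TRIM72, also called MG53, is a muscle protein that takes part in gathering vesicles at the wound.

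The promoters shown here belong to Anxa2, the annexin with the highest rise at 2 days, and to Dysf, the member whose level changed most between 2 and 30 days. They are 300 bases each, 5′ to 3′, from RefSeq (build GRCr8), running from 250 bases before to 50 bases after the start of the gene. RefSeq promoters were at hand for 8 of 10 members, the others being S100a10 and Anxa6. The sequence of Anxa2 is chr8:78986002-78986301 and that of Dysf is chr4:118059918-118060217, both on the plus strand. The capitals mark a match to TGANTCA, the letters bound by AP-1 factors.
Anxa2: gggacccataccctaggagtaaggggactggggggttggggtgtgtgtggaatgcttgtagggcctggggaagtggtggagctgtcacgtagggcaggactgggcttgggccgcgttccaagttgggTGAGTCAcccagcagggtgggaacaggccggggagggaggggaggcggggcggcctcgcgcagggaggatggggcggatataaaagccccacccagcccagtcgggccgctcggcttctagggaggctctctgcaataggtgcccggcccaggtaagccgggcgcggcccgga
Dysf: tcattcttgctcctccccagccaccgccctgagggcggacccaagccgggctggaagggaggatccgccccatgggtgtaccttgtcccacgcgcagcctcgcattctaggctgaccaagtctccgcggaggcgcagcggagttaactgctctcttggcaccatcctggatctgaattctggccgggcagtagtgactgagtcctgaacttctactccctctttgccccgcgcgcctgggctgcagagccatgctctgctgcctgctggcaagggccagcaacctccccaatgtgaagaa
TGANTCA, on either strand, was present in 7.33% of 33469 rat promoters of the same length, and among the 8 members in Anxa2 alone, where the match began at position -123 from the start of the gene. CACGTG, the E-box bound by MYC and clock factors, was present in 6.42% of all promoters and in 0 of 8 members. The motifs do not overlap in sequence, and a match is a description of letters, not a binding site.

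Values are TPM-type, that is, scaled for transcript length to the same total in every muscle, so that genes can be set side by side within a muscle. They keep no read depth, so the counting error behind a value is unknown. A gene was tested if its value was at least 1 in at least 3 muscles, which 11196 genes met. All 10 members met it, although Myof did so through trained muscles only, with 0 of 12 controls at 1 or more. Log2 fold changes are of (value + 1), trained over the 12 controls, and understate the change of low genes. They are given ± SE with the adjusted p of limma, Benjamini-Hochberg over all genes tested. Summed markers of skeletal muscle fibres lay between 59154 and 71160 in the controls, far above those of any other cell type listed. In bulk tissue, more cells of a type and more RNA per cell cannot be told apart.

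In control muscle, levels ranged over more than 2 orders of magnitude. Trim72 was highest at a mean of 156 ± 15.1 (SD, n = 12), followed by Anxa6 at 52.1 ± 3.94 and Dysf at 24.6 ± 1.95. Anxa4 at 21.1 ± 2.83 and S100a10 at 20.6 ± 4.55 could not be ordered, since Anxa4 was above S100a10 in 6 of 12 controls. Anxa2 followed at 11.3 ± 2.18 and was above Anxa5, at 9.54 ± 1.23, in 10 of 12 controls. The lowest were Anxa1 at 6.91 ± 1.81, S100a11 at 2.16 ± 1.16 and Myof at 0.533 ± 0.111.

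**Figure D1:**
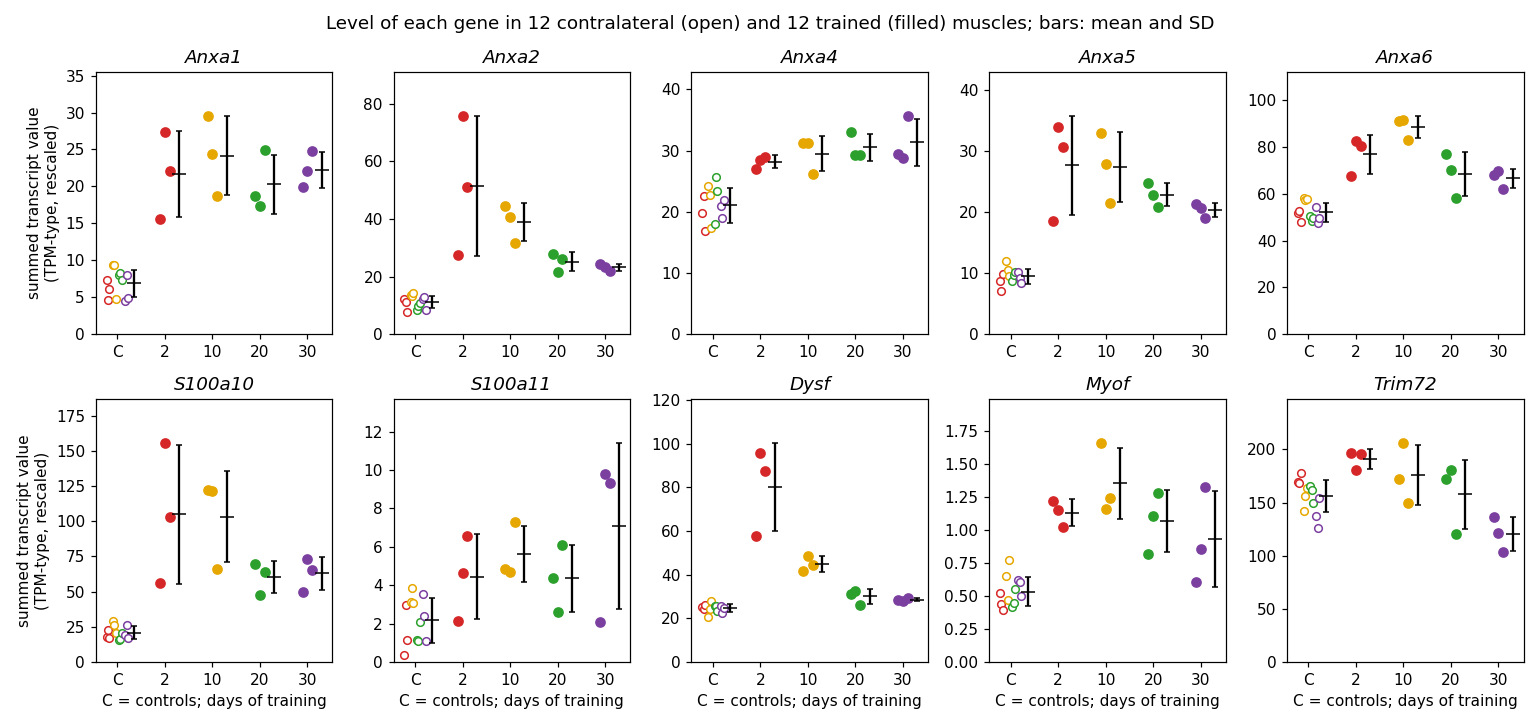
Summed, rescaled TPM-type value (linear axis from 0) of the 10 genes in each of 24 muscles. Open circles are the 12 contralateral muscles, coloured by the day of their animal, filled circles the 3 trained muscles of each day, and black bars the mean and SD. All trained muscles sit above all controls at each of the 4 time points for Anxa1, Anxa2, Anxa4, Anxa5, Anxa6 and S100a10, while Dysf separates at 2 and 10 days and Trim72 at 2 days.

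Most members were higher in trained muscle at every time point. Myof, which met the filter through trained muscles only, is left out of these counts and described on its own, so that they are over 9 members. At 2 days 7 of 9 members were higher and 0 lower, where 28.9% of all genes tested were called and 15.4% were called higher and 13.5% lower. At 10 days 8 were higher, where 28.9% of all genes tested were called and 15.6% were called higher and 13.3% lower. At 20 days 6 were higher, where 21.4% of all genes tested were called and 11.7% were called higher and 9.64% lower. At 30 days 7 were higher and Trim72 was lower, where 20.6% of all genes tested were called, 11.1% as higher and 9.46% as lower. With Myof counted in, 9 of 10 members were called at 30 days, and without trained 30 days replicate 2 the count was 5. The share of all genes called without that muscle was not computed. Anxa1, Anxa2, Anxa4, Anxa5, Anxa6 and S100a10, 6 of 9, passed as higher at all 4 time points, against 5.24% of all genes tested. The same 6 passed with animal as a block, for which no share of all genes was computed. The median log2 fold change of the 9 members was 1.41, 1.14, 0.80 and 1.00 at 2, 10, 20 and 30 days, where the median of all genes tested was -0.01, -0.03, -0.03 and -0.01.

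The members were then read against the other muscle of the same animal. With animal as a block, 8, 7, 6 and 6 of the 9 members were higher at the 4 time points and 0 were lower. The share of all genes called with the block was not computed, here or for the other genes below, so how unusual these counts are is not known. All 3 trained muscles lay above all 12 controls for 8, 8, 6 and 6 of the 9 members at 2, 10, 20 and 30 days, where 8.57%, 10.0%, 8.23% and 7.48% of all genes did, and below all controls for 0 members, where 6.18%, 8.15%, 4.81% and 6.08% of all genes did. Anxa1, Anxa2, Anxa4, Anxa5, Anxa6, S100a10 and Dysf were higher in the trained than in the contralateral muscle in 12 of 12 animals. S100a11 and Myof were higher in 11 of 12, and Trim72 in 7 of 12.

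**Figure D2:**
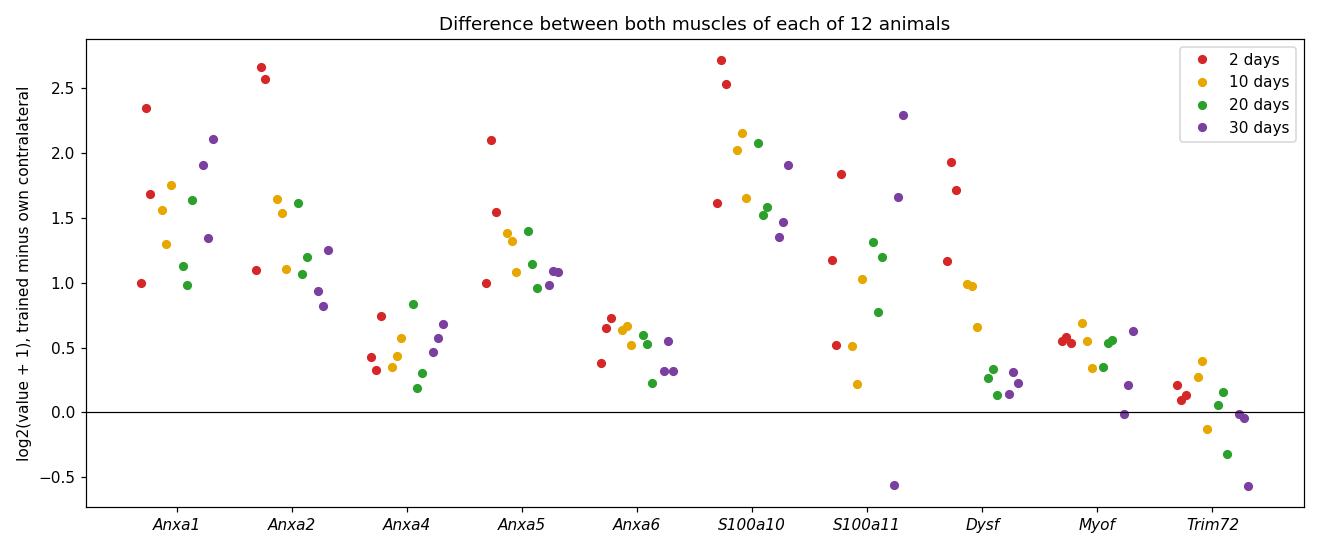
Difference in log2(value + 1) between the trained and the contralateral muscle of the same animal, 1 point for each of 12 animals and each of the 10 genes, coloured by days of training. For S100a10 the differences lie between 1.35 and 2.71, and for Trim72 they lie on both sides of 0, between -0.57 and 0.40.

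Among the annexins, Anxa2, which forms a complex with S100a10 and binds membranes and actin, showed the highest rise at 2 days. It lay between 7.81 and 14.2 in the controls, with a median of 11.7, and at 27.5, 75.8 and 51.2 after 2 days. After 10 days it was at 44.6, 40.6 and 31.8, after 20 days at 27.8, 21.7 and 26.3, and after 30 days at 24.4, 23.4 and 21.9. Each trained muscle was above every control, and the spread was widest at 2 days. The log2 fold change was 2.00 ± 0.20 at 2 days (adjusted p = 5.25e-08), 1.71 at 10 days (4.93e-07), 1.11 at 20 days (0.000205) and 1.00 at 30 days (0.000759). With animal as a block the changes at 2 and 10 days were 2.11 and 1.43. At 30 days the level was lower than at 2 days, with a log2 fold change of -1.004 (95% interval -1.52 to -0.49, adjusted p = 0.00803). That difference did not pass with animal as a block (-1.11, adjusted p = 0.0947), nor without trained 2 days replicate 2 (-0.67, adjusted p = 0.0954).

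Anxa1, a binder of phospholipids with a known part in ending inflammation, showed a rise that differed little between time points. Its controls lay between 4.58 and 9.35, with a median of 7.32, and the trained muscles at 15.6, 27.3 and 22.1 after 2 days. They were at 29.5, 24.4 and 18.7 after 10 days, at 18.7, 17.4 and 24.9 after 20 days, and at 19.9, 22.1 and 24.7 after 30 days. No trained muscle overlapped with a control. Log2 fold changes were 1.52 ± 0.20 (adjusted p = 2.66e-06), 1.68 (5.27e-07), 1.45 (7.34e-06) and 1.59 (2.96e-06) in the order of the days. The difference between 30 and 2 days was 0.06, with a 95% interval of -0.44 to 0.57 (adjusted p = 0.893).

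Anxa5, the annexin used as a probe of exposed phosphatidylserine, which forms 2-dimensional arrays on membranes, followed a like course. It lay between 7.12 and 11.96 in the controls, with a median of 9.70, and at 18.5, 33.8 and 30.6 after 2 days. The values were 32.8, 27.8 and 21.4 after 10 days, 24.7, 22.9 and 20.9 after 20 days, and 21.3, 20.6 and 18.998 after 30 days. Trained and control muscles did not overlap. The log2 fold change was 1.41 ± 0.14 (adjusted p = 6.53e-08), 1.42 (5.36e-08), 1.18 (1.35e-06) and 1.02 (1.52e-05). The change from 2 to 30 days was -0.39 (95% interval -0.75 to -0.02), which did not pass (adjusted p = 0.147). Without trained 2 days replicate 1, the lowest of its group, it was -0.64 and passed (adjusted p = 0.00765).

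Anxa6, the annexin with a double set of membrane-binding repeats, was the most abundant of the 5 and changed by a smaller factor. Its controls ranged from 47.4 to 58.1, with a median of 51.1, and the trained muscles were at 67.3, 82.6 and 80.4 after 2 days. They were at 90.96, 91.5 and 83.1 after 10 days, at 77.0, 70.0 and 58.1 after 20 days, and at 67.9, 69.7 and 62.1 after 30 days. The lowest trained muscle at 20 days lay just above the highest control. In the order of the days, its log2 fold change was 0.55 ± 0.09 (adjusted p = 6.73e-05), 0.76 (9.20e-07), 0.38 (0.00347) and 0.35 (0.00742). The contralateral muscles of the 10-day animals, at 57.3 to 58.1, lay above all other controls, the highest of which was at 54.3. With animal as a block the changes at 2 and 10 days were 0.59 and 0.61. Without trained 20 days replicate 1 the change at 20 days did not pass (0.29, adjusted p = 0.0593). The later change, at 30 days, passed neither without trained 30 days replicate 2 (0.32, adjusted p = 0.0578) nor on the values as deposited (0.13, adjusted p = 0.352).

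Anxa4, a further membrane-binding annexin, showed the smallest rise of the 5 annexins described here at 2 and 10 days. In the controls it ranged from 16.9 to 25.7, with a median of 21.5, and after 2 days it was at 27.0, 28.5 and 29.0. It was at 31.2, 31.2 and 26.2 after 10 days, at 33.1, 29.3 and 29.3 after 20 days, and at 29.5, 28.8 and 35.7 after 30 days. Every trained muscle was above every control. Its log2 fold change was 0.41 ± 0.11 (adjusted p = 0.00653), 0.48 (0.00198), 0.52 (0.00114) and 0.56 (0.000808), and the difference between 30 and 2 days was 0.14 (95% interval -0.14 to 0.43, adjusted p = 0.533). Of its 2 transcripts, the more abundant held 98.1% of the summed value over the 24 muscles.

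S100a10, the partner that forms a heterotetramer with the product of Anxa2, showed the largest log2 fold changes of the members at 2 and 10 days. Its controls lay between 15.8 and 29.3, with a median of 19.6, and the trained muscles at 56.2, 155 and 103 after 2 days. They were at 122, 121 and 66.0 after 10 days, at 69.6, 47.8 and 64.0 after 20 days, and at 49.8, 73.4 and 65.4 after 30 days. The lowest trained muscle lay well above the highest control. The log2 fold change was 2.20 ± 0.23 (adjusted p = 1.23e-07), 2.24 (8.59e-08), 1.52 (3.39e-05) and 1.57 (3.18e-05). With animal as a block the changes at 2 and 10 days were 2.28 and 1.94. The change from 2 to 30 days, -0.63 (95% interval -1.23 to -0.03), did not pass (adjusted p = 0.148), and it passed without trained 2 days replicate 1 (-1.01, adjusted p = 0.0128) and on the values as deposited (-0.96, adjusted p = 0.0130).

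S100a11, which pairs with the product of Anxa1, was low and variable. The controls ranged from 0.384 to 3.87, with a median of 2.25, and the trained muscles were at 2.13, 4.64 and 6.57 after 2 days. They were at 4.84, 4.68 and 7.30 after 10 days, at 4.35, 2.61 and 6.09 after 20 days, and at 2.10, 9.80 and 9.34 after 30 days. The groups overlapped except at 10 days. It passed at 10 days (1.14 ± 0.36, adjusted p = 0.0195) and 30 days (1.25, 0.0152) and not at 2 days (0.79, 0.104) or 20 days (0.80, 0.120). With animal as a block it passed at 2 days (1.18, adjusted p = 0.0475) and not at 10 days (0.59, 0.329) or 30 days (1.13, 0.0792). Leaving out single trained muscles also ended its calls at 10 days (without replicate 1, adjusted p = 0.0526, or replicate 3, 0.109) and 30 days (without replicate 2, 0.149, or replicate 3, 0.137), so its time points cannot be ranked.

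**Figure D3:**
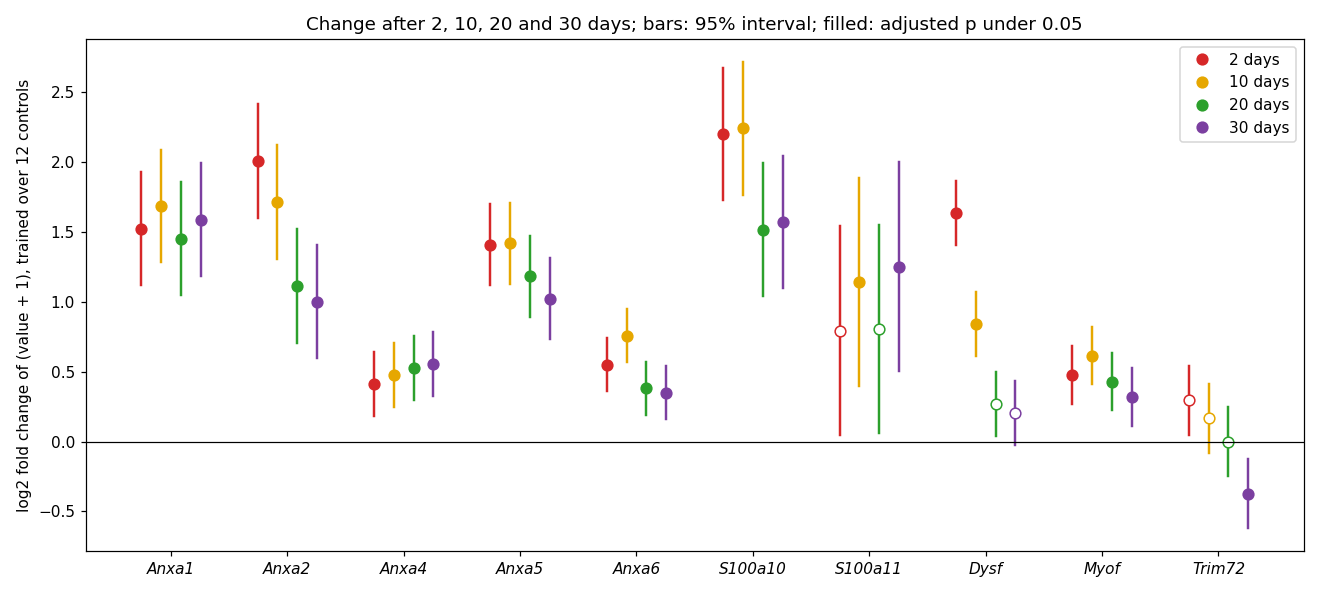
Log2 fold change of (value + 1), trained over the 12 controls, for each of the 10 genes after 2, 10, 20 and 30 days, with its 95% interval. Filled points have an adjusted p under 0.05. Anxa1 stays near 1.5 throughout, Anxa2 and Dysf are highest at 2 days, and the interval of Trim72 lies below 0 at 30 days.

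Dysf changed most with time. Its controls were close together, between 20.4 and 28.0 with a median of 24.9, and the trained muscles were at 57.5, 95.6 and 87.5 after 2 days. After 10 days they were at 41.5, 48.6 and 44.6, after 20 days at 31.3, 32.7 and 25.96, and after 30 days at 28.3, 27.9 and 29.3. Trained muscles were above all controls at 2 and 10 days and overlapped with them at 20 and 30 days, where they were still above the other muscle of their own animal in 3 of 3 animals. The log2 fold change was 1.63 ± 0.11 at 2 days (adjusted p = 1.51e-10) and 0.84 at 10 days (3.71e-06). It was 0.27 at 20 days (95% interval 0.04 to 0.50, adjusted p = 0.0898) and 0.20 at 30 days (-0.03 to 0.44, 0.205), which did not pass. The level at 30 days was lower than at 2 days by a log2 fold change of -1.43 (95% interval -1.72 to -1.14, adjusted p = 9.63e-07), also with animal as a block (-1.38, adjusted p = 0.00435). This was the one member that passed with the block, for which the share of all genes was not computed. Without the block, 3 of 9 members were lower at 30 than at 2 days and 0 higher. In that fit 15.0% of all genes tested differed, 7.07% being higher and 7.91% lower at 30 days. Dysf lies on rat chromosome 4 of Rnor_6.0. Of its 2 transcripts, the more abundant held a median of 78.1% of the summed value in the controls and 77.3% after 2 days.

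Myof, a ferlin of the same family best known in myoblast fusion, was close to the lowest value tested. The controls ranged from 0.392 to 0.771, with a median of 0.511, and the trained muscles were at 1.22, 1.15 and 1.02 after 2 days. They were at 1.66, 1.16 and 1.24 after 10 days, at 0.815, 1.10 and 1.28 after 20 days, and at 0.604, 0.857 and 1.32 after 30 days. Only at 30 days did the groups overlap. Since Myof met the filter through trained muscles only, with 0 of 12 controls at 1 or more, its adjusted p-values describe the values and are not support for a rise. It changed by a log2 fold of 0.48 ± 0.10 (adjusted p = 0.000791), 0.62 (4.58e-05), 0.43 (0.00282) and 0.32 (0.0251), and the last did not pass with animal as a block (0.27, adjusted p = 0.189). Nor did it pass without trained 30 days replicate 2 (0.34, 0.0679) or replicate 3 (0.17, 0.308), or on the values as deposited (0.21, 0.149). The share of the less abundant of its 2 transcripts was 4.21% in the median control and the median muscle at 2, 10 and 20 days, and so carries no information on its transcripts.

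Trim72 was the exception among the members. It lay between 126 and 178 in the controls, with a median of 159, and at 197, 181 and 195 after 2 days. It was at 173, 206 and 150 after 10 days, at 172, 181 and 120 after 20 days, and at 136, 122 and 104 after 30 days. The trained muscles were above all controls at 2 days and overlapped with them at the other time points. The log2 fold change was 0.29 ± 0.12 at 2 days (adjusted p = 0.0674), 0.17 at 10 days (0.322), -0.00 at 20 days (0.991) and -0.37 at 30 days (0.0278). It was 0.41 at 2 days on the values as deposited (adjusted p = 0.0359) and 0.32 in the gene-level table (0.0199), where it passed. The change at 2 days was 0.15, and did not pass, both with animal as a block and against the controls of the same day (adjusted p = 0.504 and 0.530).

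The contralateral muscles of Trim72 also differed in level between time points, with means of 172, 154, 159 and 139 at 2, 10, 20 and 30 days. With animal as a block, the change at 30 days was -0.21 (adjusted p = 0.382), and without trained 30 days replicate 2 or 3 the pooled change did not pass either (-0.38, 0.0823, and -0.27, 0.213). Between the trained muscles, 30 days was lower than 2 days (-0.67, 95% interval -0.98 to -0.36, adjusted p = 0.00400), and the difference of the 2 within-animal changes did not pass (-0.36, 0.366). Within animals, the trained muscle was higher in 3, 2, 2 and 0 of 3 animals at the 4 time points.

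Ratios between partner genes were compared within each muscle. The log2 ratio of S100a10 to Anxa2 (both with 1 added) was 0.81 ± 0.21 in the controls (SD, n = 12) and 1.01 ± 0.02 after 2 days (n = 3), a difference of 0.20 (adjusted p = 0.215, exact two-sided permutation test over 455 splits, adjusted over 12 ratios). It was higher by 0.53, 0.41 and 0.57 at 10, 20 and 30 days (exact permutation, adjusted p = 0.0198 each). The smallest p that 12 against 3 muscles can give is 0.0022. The permutation treated all muscles as exchangeable, although the controls span 4 time points and include the other muscles of the same animals. Its p-values therefore leave the pairing out. Each of these 3 calls was lost when either of 2 of its 3 trained muscles was left out. The ratio of Myof to Dysf, the ferlins, was -4.06 ± 0.16 in the controls and lower by 1.16 on the log2 scale after 2 days (exact permutation p = 0.0022, adjusted p = 0.0198). At 10, 20 and 30 days it differed by -0.23, 0.16 and 0.11 (exact permutation, adjusted p = 0.195, 0.290 and 0.391). For S100a11 to Anxa1 the differences of -0.73, -0.54, -0.65 and -0.34 did not pass (exact permutation, adjusted p = 0.207, 0.309, 0.218 and 0.503). Myof met the filter through trained muscles only, with 0 of 12 controls at 1 or more. The p-values of its ratio to Dysf therefore describe the values and are not support for a change. At 2 days that ratio holds the changes of Dysf (1.63) and Myof (0.48) and is not a separate result. The Myof to Dysf ratio also depends on the value added. With 0.1 added in place of 1, its difference from the controls was -0.69 at 2 days (exact permutation, adjusted p = 0.0316), 0.34 at 10 days (0.177), 0.60 at 20 days (0.0316) and 0.45 at 30 days (0.105), so that the call at 2 days was kept at a smaller size and the sign at 10 days turned.

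**Figure D4:**
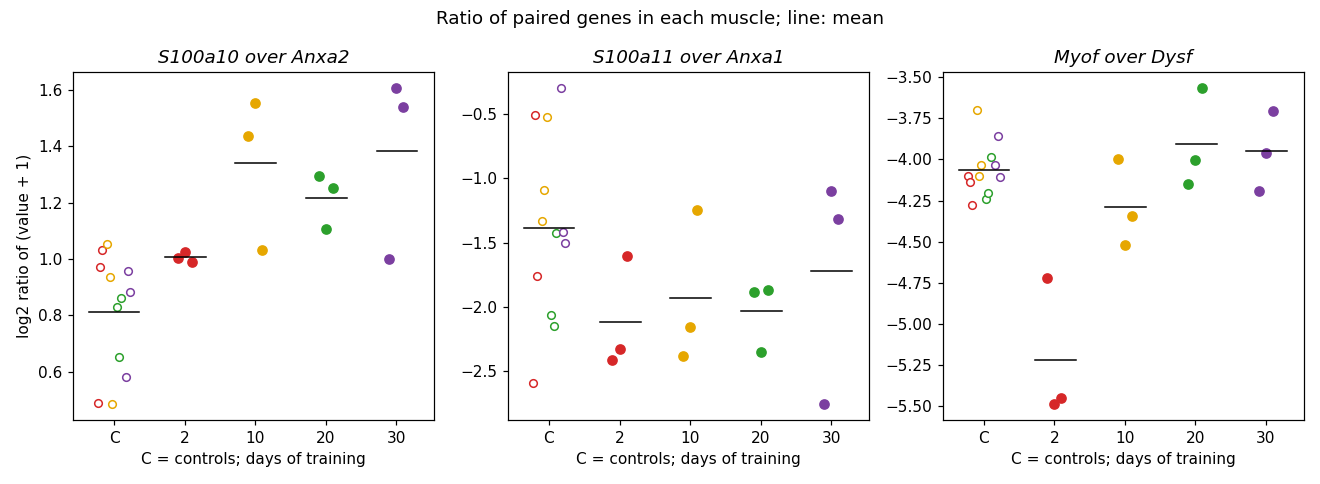
Log2 ratio of (value + 1) of S100a10 to Anxa2, S100a11 to Anxa1 and Myof to Dysf in each of the 24 muscles, with open circles for the 12 controls, filled circles for trained muscles and lines for group means. The vertical axes differ and do not start at 0. The S100a10 to Anxa2 ratio lies higher at 10, 20 and 30 days, and the Myof to Dysf ratio is lowest at 2 days.

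Members were compared with markers of other cells in the muscle. The summed level of 8 macrophage and leukocyte markers was between 6.74 and 16.9 in the controls and between 21.3 and 51.2 in the trained muscles, with 5, 5, 6 and 6 of 6 tested markers higher at the 4 time points. The sum of 5 fibroblast markers was 74.6 to 253 in the controls and 301 to 982 in the trained muscles, with 4, 5, 5 and 5 of 5 higher. No marker of either list was below 0.1 in all muscles. Both sums were higher in every trained muscle than in every control, as were Anxa1, Anxa2, Anxa4, Anxa5, Anxa6 and S100a10, and their part in the result was not tested. Summed fibre markers lay between 46294 and 78305 in trained muscle. Of 5 markers, 0, 2, 1 and 1 were higher and 3, 3, 3 and 2 lower at the 4 time points. With animal as a block, 0, 1, 1 and 1 were higher and 2, 3, 1 and 1 lower. Actn3, the actinin of fast fibres, was lower at all 4 (-0.74, -1.44, -1.84 and -2.18), while Mb, the oxygen-binding myoglobin, was lower at 2 days (-0.64) and higher after that (0.57, 0.74 and 0.65). The sum of 3 smooth muscle markers was 21.7 to 51.2 in the controls and 47.8 to 60.6 after 2 days, when Tagln (0.79, adjusted p = 0.00959) and Cnn1 (0.70, 0.0108) were higher, neither of which passed with animal as a block (0.24, 0.290, and 0.31, 0.194). At the later time points 0 of 3 were higher against the pooled controls, with sums of 26.5 to 56.7. With animal as a block, Tagln was higher at 10 days (0.55, adjusted p = 0.0219) and Cnn1 at 30 days (0.59, 0.0302). The 3 Schwann cell markers summed to 3.11 to 16.1 in the controls and 3.45 to 14.8 in trained muscle, with 0 higher and, at 30 days, 1 lower. Sums of 3 satellite cell markers were 2.78 to 8.15 in the controls and 4.14 to 8.28 in trained muscle, with 1, 1, 0 and 0 of 2 tested markers higher. Those of 3 endothelial markers (Pecam1 was not in the table) were 20.9 to 33.8 in the controls and 16.3 to 48.2 in trained muscle. At 20 days the endothelial sums were 37.7 to 39.1, above every control. Of these 3 markers 0, 1, 1 and 1 were higher and, at 2 days, 1 was lower. Cdh5 was higher from 10 days on (0.49, 0.68 and 0.51, the last with adjusted p = 0.0721 with animal as a block). Kdr was lower at 2 days (-0.47, with the block -0.30 and adjusted p = 0.0790). The part of these changes in the members' results was not tested.

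The other genes of membrane repair were counted by family. Of 4 other annexins tested, 1, 1, 1 and 2 were higher at 2, 10, 20 and 30 days, and with animal as a block 1, 1, 2 and 3. Anxa7, which takes part in vesicle fusion, passed at all 4 (0.39, 0.73, 0.66 and 0.66), and Anxa11, with a mean of 40.1 in the controls, passed at 30 days (0.32, adjusted p = 0.00484). Of 7 other S100 genes tested, 3, 4, 3 and 3 were higher and 1, 1, 0 and 0 lower, and with animal as a block 2, 4, 3 and 3 were higher and 0, 1, 0 and 1 lower. The lower one was S100a1, a calcium sensor of striated muscle, at 2 days (-0.61, with the block -0.43 and adjusted p = 0.128) and 10 days (-0.66). Those higher included S100a4 (2.60, 3.24, 2.68 and 2.73) and S100a6 (1.30, 1.38, 1.42 and 1.36) at all 4 time points. S100a8 and S100a9, abundant in neutrophils, did not meet the filter, with control means of 0.28 and 0.51. Of the other ferlins, 2 of 4 were in the table and 0 met the filter, Fer1l5 and Fer1l6 having control means of 0.03 and 0.02.

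Of 8 calpains and dysferlin partners tested, 5, 4, 1 and 2 were higher at the 4 time points and 0 lower, and with animal as a block 3, 2, 1 and 0 were higher. Capn2, a calcium-activated protease, was higher at all 4 (1.31, 1.18, 0.71 and 0.61, the last with adjusted p = 0.0621 with animal as a block). Bin1, a membrane-bending protein of the T-tubules, had the highest level of the list, with a control mean of 419, and was higher at 2 days only (0.42, adjusted p = 0.00228), which did not pass with animal as a block (0.25, 0.145). Pacsin3, a membrane-shaping protein, was higher at 2 days (0.68) and 10 days (0.48, with the block 0.43 and adjusted p = 0.0912).

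Of 10 genes of caveolae and EHD proteins, 5, 5, 5 and 4 were higher and 2, 1, 1 and 1 lower, and with animal as a block 3, 5, 5 and 3 were higher and 1, 1, 1 and 0 lower. Cavin1, which coats caveolae, was higher at all 4 time points (0.36, 0.74, 0.71 and 0.56, the first with adjusted p = 0.119 with animal as a block), as was Ehd4, a membrane-remodelling ATPase (1.42, 1.18, 0.79 and 0.82). Cav1, the caveolin of non-muscle cells, was higher from 10 days on (0.68, 0.72 and 0.72), and the muscle-specific Cavin4 was higher at 2 days (0.49) and lower at 20 and 30 days (-0.33 and -0.36, the latter with adjusted p = 0.0824 with animal as a block).

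Of 7 genes of the membrane-cutting ESCRT machinery, 2, 0, 0 and 1 were higher and 0, 1, 1 and 1 lower, and with animal as a block 0, 0, 0 and 1 were higher and 0, 0, 1 and 0 lower. Chmp3, the most abundant, was lower at 10, 20 and 30 days (-0.31, -0.46 and -0.31), at 20 days alone with animal as a block, and Chmp2a passed at no time point (0.14 to 0.27). Of 5 vesicle fusion genes, 0 were higher at any time point by limma, and with animal as a block 1, 0, 1 and 0 were. Stx4, a syntaxin, was lower at 30 days (-0.26, adjusted p = 0.0437), which did not pass with animal as a block (-0.23, 0.213). Smpd1, the acid sphingomyelinase, passed at no time point (-0.08 to -0.04).

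Genes most like a member were ranked by Pearson's r of log2 values over the 24 muscles, which share libraries, scaling and the training contrast. Those most like Anxa2 were S100a10 (0.968), Ehd4 (0.967), Ptpn12 (0.963), Itga5 (0.957) and Arfgap3 (0.957). Those most like Dysf were Tubb6 (0.963), Pvr (0.962), Pdlim3 (0.961), Rnh1 (0.953) and Hspb8 (0.945). Trim72 was most like Shisa4 (0.892), Pbxip1 (0.880), Lsm4 (0.871), AABR07030443.2 (0.867) and Emc10 (0.859), all lower than the values for Anxa2 and Dysf.

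On Rnor_6.0, Anxa2 lies at chr8:75687100-75723594 on the plus strand, Dysf (its more abundant transcript) at chr4:115713004-115901873 on the plus strand and Trim72 at chr1:199449973-199457895 on the plus strand, each span being that of a protein-coding transcript with its introns. S100a11 and S100a10 are neighbours on chromosome 2, 24086 bases apart, at chr2:193866951-193868502 and chr2:193892589-193901236. Anxa6 at chr10:40320581-40375605 was the one member that overlapped an antisense gene in the table, AC093965.1, whose mean was 0.19.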

How the data were processed

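Poly-A RNA of 24 tibialis anterior muscles from 12 rats was sequenced in paired reads with a stranded kit. The authors trimmed reads at a Phred score of 25, aligned them with STAR to Rnor_6.0 (rn6) in Partek Flow and quantified Ensembl release 99. The deposited transcript values are TPM-type, with the same total of 634431 in every sample, and the deposited gene-level values of 4635 genes (signal, scaled by gene span) hold 5 members. A deposited file of the authors' own comparisons holds fold changes and p-values and was not used. No table holds counts, so count models were not run.

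Each sample's values were scaled by a factor from the median of ratios (16230 transcripts above 0 in all samples, factors 0.778 to 1.137) and summed per gene symbol. The model for log2(sum + 1) used limma 3.58.1 (R 4.3.3) with the 12 controls as 1 group and 3 trained muscles per day, after a filter of at least 1 in at least 3 muscles, with Benjamini-Hochberg adjustment and a threshold of 0.05. The 12 controls were pooled because the study did so. Python 3.11.15 with pandas 2.3.3, numpy 2.4.6 and, for figures, matplotlib 3.10.9 served for the rest. The fit was tested on simulated data. Members and lists were chosen with earlier results of these data known. Named genes are all members, the 2 with the highest mean of each list, list genes that passed at all 4 time points and the 5 most like Anxa2, Dysf and Trim72. S100a1, S100a8, S100a9, the markers named and AC093965.1 were named after their values were seen.

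The labels number both muscles of an animal alike, so animal was used as a block in an alternative. Deviations from group means correlated by a median of 0.174 over 12 such pairs (0.028 to 0.343) and -0.0096 over 132 pairs of different animals. Samples of one group are separate animals, and 0 of 276 pairs of samples were identical. Low values of short transcripts fell on whole multiples of 1 constant (within 0.01) in at most 54.3% of cases, and in 6.0% in one library, so reads were not recovered. Alternatives were the values as deposited, a pseudocount of 0.1, no filter, animal as a block, time-matched controls, the top transcript, the gene-level table and each trained muscle left out. After the values were seen, a pseudocount of 0.1 in the gene-level table and the omission of control 30 days replicate 1, the library with the lowest factor, were added.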

Additional observations from a re-analysis of the deposited data

Results flagged for a closer look

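For 3 members the level in trained muscles differed between 30 and 2 days in limma, in a direct contrast of trained muscles that sets neither day against its controls. Of all genes tested, 15.0% differed in that contrast, 7.07% being higher and 7.91% lower at 30 days. The log2 difference was -1.004 for Anxa2 (adjusted p = 0.00803), -1.43 for Dysf (9.63e-07) and -0.67 for Trim72 (0.00400). The trained muscles of Dysf had a mean of 80.2 after 2 days and 28.5 after 30 days, against 25.1 and 24.2 in the contralateral muscles of the same animals. For Trim72 the means were 191 and 120 in trained and 172 and 139 in contralateral muscles. With animal as a block, which compares the changes within animals, Dysf alone passed (-1.38, adjusted p = 0.00435), and Anxa2 (-1.11, 0.0947) and Trim72 (-0.36, 0.366) did not.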

How the results depend on the processing

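No value tested changed direction past the threshold. Counts of members called are here over all 10 and so include Myof, which met the filter through trained muscles only. They ranged from 8 to 9 at 2 days, 8 to 9 at 10 days, 6 to 7 at 20 days and 5 to 9 at 30 days when single muscles were left out, and from 2 to 5 between 30 and 2 days. Between 30 and 2 days, 6 members passed on the values as deposited, where the median of all genes was -0.27, and 1 with animal as a replicate block, which pairs both muscles of an animal. The share of all genes called was not computed for either setting, nor with single muscles left out. How unusual these counts are is therefore not known. At 30 days as deposited the median of all genes was -0.18. The ratio of S100a10 to Anxa2 ranged from 0.42 to 0.68 at 10 days, 0.37 to 0.46 at 20 days and 0.46 to 0.76 at 30 days with single muscles left out, and not every value passed. With 2 trained muscles, the smallest exact p was 0.011. Myof to Dysf at 20 days was 0.60 with a pseudocount of 0.1. The cause of these changes was not tested. Of values for single members, 537 kept their side of the threshold, 23 no longer passed and 10 newly passed. Those 537 can include changes of sign where neither value passed. For S100a11 the difference between 30 and 2 days was 0.46, and -0.04 with animal as a block. Depth could not be read from the files, so its limit is unknown.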
